A study of Equus caballus with 6 samples.

Results

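The mitochondrial genes were compared between immature (BSM) and mature (ASM) testis of the Mongolian horse. The members were found by identifier: of the 26991 Ensembl genes in the count table, 43 carry a final number within 1 consecutive block, and 26 of these 43 had a count. For each of them, the count, the FPKM (fragments per gene length, scaled to the library total) and the total of the library imply a gene length, a whole number within 0.001 bp in every library, which was compared with the 37 mitochondrial genes of the RefSeq horse table (assembly TB-T2T). The lengths of 11 members equalled that of exactly 1 mitochondrial gene, namely COX1, COX2, COX3, ATP6, ATP8, CYTB, ND3, ND4, ND4L, ND5 and ND6. A further 4 members lay within 2 bp of exactly 1 mitochondrial gene and are called ND1, ND2, rrn12 and rrn16 on that looser match. The tolerance of 2 bp was set after the lengths were seen. Length alone does not identify a gene, since between 4 and 28 Ensembl genes of the whole table share the length of each named member, and the names rest on the block and the length together. Another 8 members were shorter than 80 bp, the range of tRNA genes, and were kept on that length alone. The 74-bp one of them equals no tRNA of the table. A further 3 identifiers, of 124, 134 and 142 bp, were set aside because no mitochondrial gene lies within 2 bp of them. The 13 protein-coding genes, 2 rRNA genes and 8 tRNA-length genes make 23 members with values. From the first to the last of these, the block holds 37 identifiers, as many as there are mitochondrial genes in the table, but 14 of them had no count in any library and therefore no length to check.

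Testis RNA was sequenced from 3 horses of each stage, at 11 to 13 months of age for BSM (libraries BSM1, BSM2, BSM3) and at 3 to 4 years for ASM (libraries ASM1, ASM2, ASM3). All were healthy males that were gelded, and each gave 1 library of poly(A) RNA, so the libraries of a stage are separate animals. The columns of the mature stage carry no sample title, so ASM1 to ASM3 name libraries in no particular order of animals. Gene counts totalled between 14015484 and 15910529 in BSM and between 17195381 and 19721986 in ASM. Whole testis tissue holds many cell types, and in bulk samples fewer cells of a type and less RNA per cell cannot be told apart. Markers of the cell types in the tissue were not analysed here, because the RefSeq table used here pairs no Ensembl identifier with a gene symbol. Nuclear near-copies of mitochondrial genes exist in mammals, and how reads shared with them were counted is not given in the sources used here, so the levels carry that uncertainty.

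The mitochondrial genome of mammals encodes a small set of core subunits of the respiratory chain and of ATP synthase, together with the ribosomal and transfer RNAs needed to translate them. It is transcribed from both strands into long precursors, from which the tRNAs are cut out so that the mRNAs and rRNAs between them are released. The single mRNAs then differ in abundance through processing and stability. In the testis, Sertoli cells, Leydig cells and the successive germ cells differ in their mitochondria and in their use of glycolysis and respiration.

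The mitochondrial genes took up a smaller share of the transcriptome in the mature testis. Of the gene counts, all members together held 5.36%, 5.30% and 5.19% in the 3 BSM libraries and 2.61%, 2.58% and 2.79% in the 3 ASM libraries. The mean was 5.28% ± 0.0854 (SD, n = 3) before maturity and 2.66% ± 0.110 (SD, n = 3) after it, a ratio of 0.503. The stages were separated by many times the spread within a stage. A 2-sided exact permutation test gave p = 0.1, below which groups of this size cannot go, and 0.125 after adjustment over 5 shares. Nearly all of these counts came from mRNAs, which made up 96.9% ± 0.472 (SD, n = 3) of the member counts in the immature and 95.9% ± 1.06 (SD, n = 3) in the mature testis. COX1, the catalytic core of cytochrome c oxidase, alone held between 1.78% and 2.07% of all gene counts in BSM and between 0.879% and 1.004% in ASM. It had the most counts of any gene in 5 of the 6 libraries and ranked 2 in ASM2. Of the 10 genes with the most counts, 5 or 6 were mitochondrial in each BSM library and 3 or 4 in each ASM library.

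**Figure D1:**
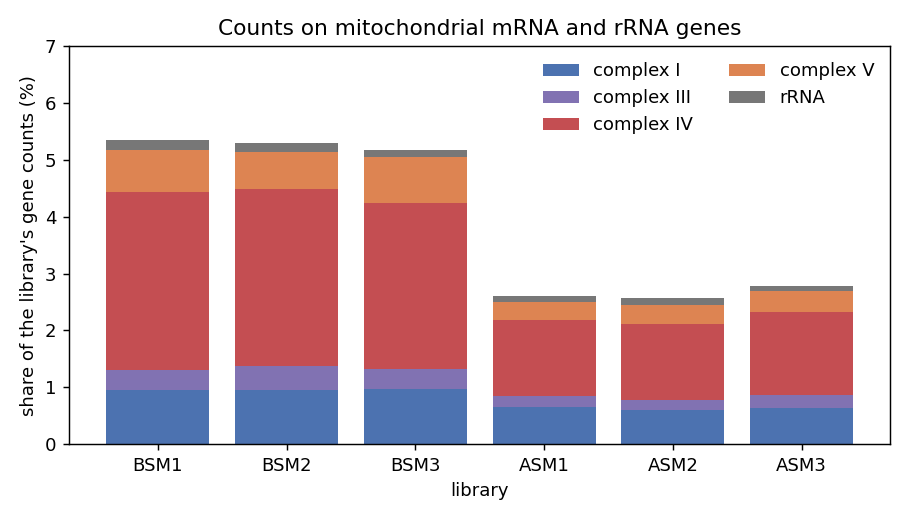
Share of each library's gene counts (percent, y axis) that fell on mitochondrial mRNA and rRNA genes in the 6 libraries (x axis), stacked by the respiratory complex that the mRNA encodes. The mRNA part reached between 5.05% and 5.16% in the BSM libraries and between 2.45% and 2.70% in the ASM libraries, and complex IV was its largest part in each library.

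A share of counts also moves when other genes take up more of a library, so the test across all genes used the TMM scaling of edgeR, which sets the libraries level on the bulk of the genes. With TMM the summed mitochondrial mRNA was lower in ASM by a log2 value of -0.55, against -1.005 with the library total as the only scaling and -0.43 with DESeq2 size factors. The median log2 fold change of all 32954 genes tested was 0.06 with TMM, -0.40 with the library total and 0.18 with DESeq2 size factors, so the scalings shift all genes together. FPKM values below are per library total, whereas log2 fold changes are on the TMM scale unless another is named.

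In the edgeR test of ASM against BSM, 7 of the 13 mitochondrial mRNAs fell and 0 rose at an adjusted p under 0.05, and the same 7 and 0 passed an unadjusted p under 0.05. Over all genes tested, 36.0% were lower in ASM and 41.4% were higher. Among the 1620 abundant genes, those with a mean log2 CPM (the count scaled to library size, on a log scale) of at least 7, 26.2% were lower. The mRNAs that fell were COX1, COX2, COX3, ATP6, CYTB, ND3 and ND6. Their median together with the other 6 mRNAs was -0.60 on the log2 scale, against 0.06 for all genes tested and 0.91 for the abundant genes, a class that ND6 and ATP8 with their lower counts do not belong to. In 8 of the 13 mRNAs, the 7 that fell and ND1, the log2 CPM of the stages did not overlap and was lower in ASM, which was so for 38.4% of all genes tested. The count of 7 fell to 2 without ASM1, 4 without ASM2 and 3 without ASM3. Over all genes tested in these fits, 10938 of 36678, 11106 of 36623 and 11040 of 36366 were lower. In these fits the share of mRNAs called lower was thus near or below that of all genes. With the other scalings the count of mRNAs called lower was 6, beside 1 mRNA that was higher, for DESeq2 size factors, and 9 for the library total. Over all 32954 genes tested, 11052 were lower and 14106 higher with DESeq2 size factors, and 14609 were lower with the library total.

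**Figure D2:**
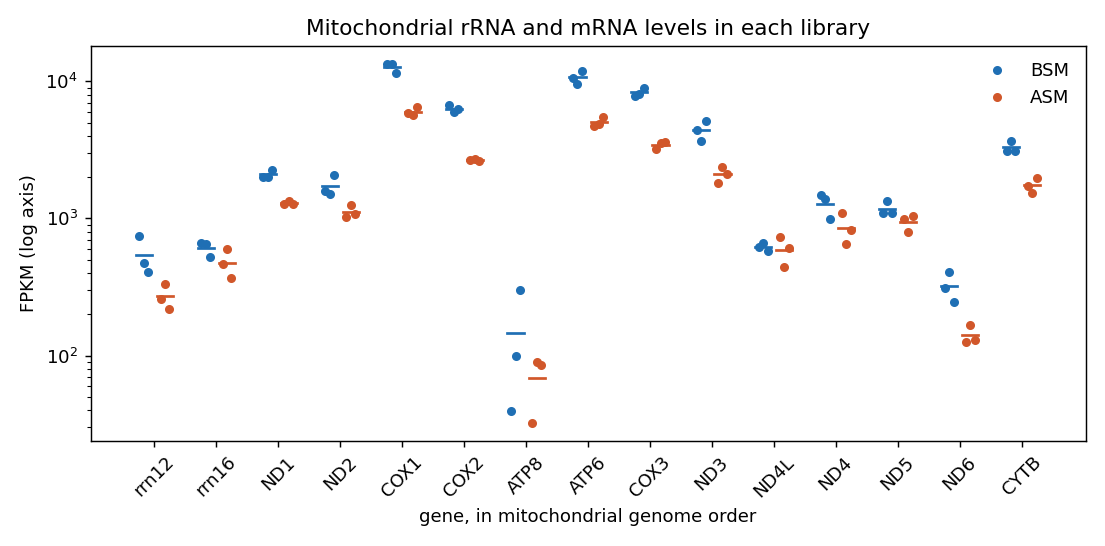
Level of each mitochondrial rRNA and mRNA (FPKM, log axis) in the order of the genes along the mitochondrial genome. Points are single libraries and bars are means of 3 libraries of a stage. COX1 and ATP6 are at the top in both stages and ATP8 at the bottom, and the BSM and ASM points of ND4L overlap.

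The 3 cytochrome c oxidase subunits of complex IV, which pass electrons to oxygen, all fell. COX1 (ENSECAG00000027689, 1545 bp) had FPKM values of 13401, 13377.5 and 11518 in the BSM libraries, and of 5847, 5689 and 6498 in the ASM libraries. The stages lay far apart, and the mean of ASM was 0.471 of that of BSM. On the TMM scale COX1 changed by a log2 fold change of -0.64 ± 0.19 (SE) with an edgeR adjusted p of 0.0166, and this call was lost without ASM1, ASM2 or ASM3 and when 10 counts were required in every library. COX2 (ENSECAG00000027692, 684 bp), which takes up the electrons from cytochrome c, had 6699, 5958 and 6294 FPKM in BSM and 2648, 2714 and 2627 FPKM in ASM. Its ASM libraries were the closest together of all mRNAs and rRNAs, with a coefficient of variation of 1.70%. The log2 fold change of COX2 was -0.80 ± 0.16 (SE), with an edgeR adjusted p of 0.00228. COX3 (ENSECAG00000027672, 784 bp), the third core subunit, had 7775, 8137 and 8946 FPKM in BSM and 3185, 3549 and 3608 FPKM in ASM. Its ASM mean was 0.416 of its BSM mean, the lowest ratio of the mRNAs and rRNAs. The log2 fold change of COX3 was -0.81 ± 0.16 (SE), with an edgeR adjusted p of 0.00186. COX2 and COX3 stayed lower with an adjusted p under 0.05 in each of the 13 other fits.

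Complex V, the ATP synthase, draws ATP6, part of its proton channel, and ATP8, a small membrane subunit, from the mitochondrial genome. ATP6 (ENSECAG00000027671, 681 bp) had 10631, 9561 and 11821 FPKM in BSM and 4758, 4913 and 5466 FPKM in ASM, and so ranked behind COX1 by the mean of both stages, though above it in BSM3. The log2 fold change was -0.63 ± 0.17 (SE) with an edgeR adjusted p of 0.0100, which rose above 0.05 without ASM1 or ASM2. ATP8 (ENSECAG00000027679, 204 bp) had 39.5, 99.2 and 303 FPKM in BSM and 32.4, 89.7 and 85.2 FPKM in ASM. Its values were the most uneven among the mRNAs, with a coefficient of variation of 93.8% in BSM, and the stages overlapped. For ATP8 the log2 fold change was -0.60 ± 0.67 (SE), with an edgeR adjusted p of 0.428 and a change of sign to 0.28 without BSM3.

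Complex III has CYTB, cytochrome b, as its mitochondrial subunit. CYTB (ENSECAG00000027669, 1140 bp) had 3096, 3699 and 3084 FPKM in BSM and 1721, 1521 and 1976 FPKM in ASM, without overlap. With a log2 fold change of -0.47 ± 0.17 (SE) and an edgeR adjusted p of 0.0322, it fell least of the 7 mRNAs that passed. The adjusted p of CYTB was 0.108 with DESeq2 size factors and 0.138 in DESeq2, and it also missed the threshold when 10 counts were required in every library and without BSM2, ASM1, ASM2 or ASM3. Without ASM2 the log2 fold change of CYTB was -0.28.

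Complex I, the NADH dehydrogenase, has 7 mitochondrial subunits, and these differed from each other. ND3 (ENSECAG00000027695, 346 bp), a small membrane subunit near the junction of the complex's arms, had 4435, 3664 and 5116 FPKM in BSM and 1826, 2389.7 and 2103 FPKM in ASM. Its log2 fold change of -0.61 ± 0.18 (SE) had an edgeR adjusted p of 0.0154, and was not called without ASM1 or ASM3. ND6 (ENSECAG00000027677, 528 bp) had 309.8, 405 and 247 FPKM in BSM and 125, 167 and 131 FPKM in ASM, and the stages did not overlap. The log2 fold change of ND6 was -0.73 ± 0.21 (SE), with an edgeR adjusted p of 0.0135 that became 0.0525 in DESeq2 and also missed the threshold without ASM1 or ASM3. ND6 is the only protein-coding gene on the light strand of the mammalian mitochondrial genome.

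The other 5 complex I mRNAs did not pass the test. ND1 (ENSECAG00000027684, 957 bp), a membrane subunit at the site of quinone binding, had 2017, 2015 and 2257 FPKM in BSM and 1276, 1348 and 1274 FPKM in ASM. These groups did not overlap, but on the TMM scale the log2 fold change was -0.23 ± 0.14 (SE), with an edgeR adjusted p of 0.153. ND1 was called lower without BSM1, at -0.38 with an edgeR adjusted p of 0.0292, and had -0.085 without ASM3. ND2 (ENSECAG00000027681, 1041 bp) had 1581, 1518 and 2069.6 FPKM in BSM and 1026, 1259 and 1073 FPKM in ASM, and a log2 fold change of -0.16 ± 0.17 (SE). For ND4 (ENSECAG00000027675, 1378 bp) the levels were 1479, 1376 and 996 FPKM in BSM and 1094, 648 and 828 FPKM in ASM, and the stages overlapped. ND2, ND4 and ND5 form the proton-pumping part of the membrane arm. ND5 (ENSECAG00000027694, 1815 bp) had 1089, 1349.5 and 1091 FPKM in BSM and 984, 792 and 1047 FPKM in ASM, a ratio of the means of 0.800. Its log2 fold change was 0.13 ± 0.17 (SE) with TMM and -0.32 ± 0.17 (SE) with the library total. ND4L (ENSECAG00000027691, 297 bp) had 615, 657 and 578 FPKM in BSM and 729, 441 and 607 FPKM in ASM. The highest and the lowest of these 6 values of ND4L were both in ASM, and the ratio of the means was 0.960. ND4L had a log2 fold change of 0.40 ± 0.20 (SE) with TMM, an edgeR adjusted p of 0.0964, and it was called higher with DESeq2 size factors, where the adjusted p was 0.0447, and without ASM2, where it was 0.0131 at a log2 fold change of 0.67. Without BSM3 the log2 fold change of ND4L was 0.20, with an edgeR adjusted p of 0.478.

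**Figure D3:**
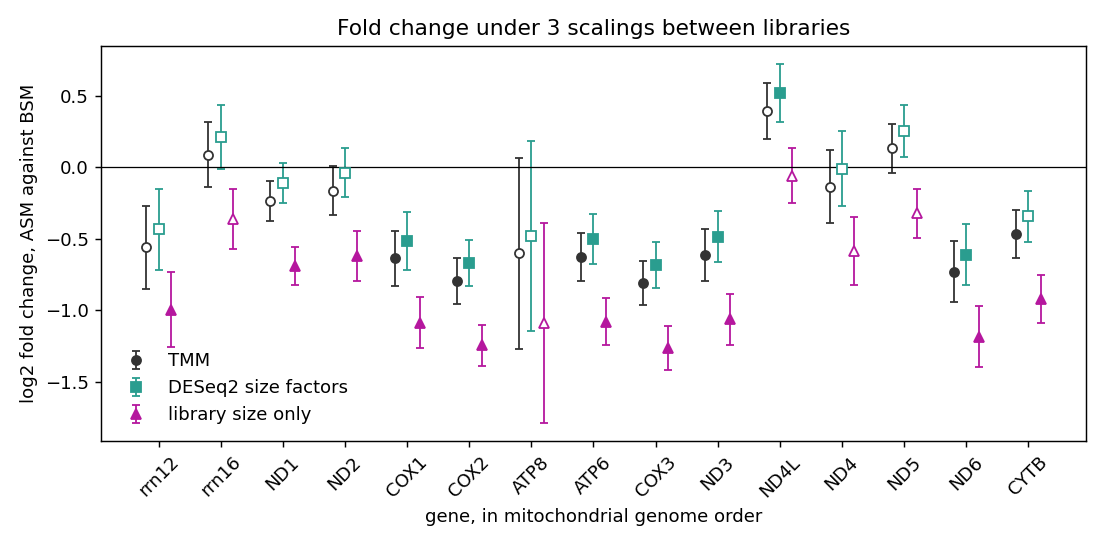
Log2 fold change of ASM against BSM (y axis) with its standard error for each mitochondrial rRNA and mRNA (x axis, genome order) under 3 scalings, with filled symbols for an adjusted p under 0.05 in edgeR. The scalings move all genes by about the same step, from -0.64 with TMM to -1.09 with the library total for COX1, so the calls of ND1, ND2, rrn12, CYTB and ND4L depend on the scaling.

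The order of the levels per length was nearly the same in the mature and the immature testis. By mean FPKM it ran from COX1 over ATP6, COX3, COX2, ND3, CYTB, ND1 and ND2 to ND4 and ND5 in BSM, and the same genes followed each other in ASM except that ND5 stood above ND4. ND4L, rrn16, rrn12, ND6 and ATP8 closed the order in both stages. The ranges of neighbours overlapped in BSM for COX1 and ATP6, ND3 and CYTB, ND1 and ND2, ND4 and ND5, ND4L and rrn16, rrn16 and rrn12, and ND6 and ATP8, and of these pairs only ND1 and ND2 kept the same order within each of the 3 libraries, ND1 being higher. In ASM they overlapped for ND3 and CYTB, ND2 and ND5, ND5 and ND4, ND4 and ND4L, and ND4L and rrn16. Within each ASM library ND3 was above CYTB, ND2 above ND5 and ND4 above ND4L, whereas ND5 was above ND4 and ND4L above rrn16 in 2 of the 3 libraries.

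The makeup of the mitochondrial mRNA pool was compared next, since shares within the pool do not depend on the scaling against other genes. Of the summed mRNA FPKM, complex I made up 21.7%, 21.2% and 22.7% in the BSM libraries and 27.96%, 27.6% and 25.8% in the ASM libraries. Its mean was 21.9% ± 0.792 (SD, n = 3) before and 27.1% ± 1.13 (SD, n = 3) after maturity, and the stages did not overlap. Complex IV mRNAs went the other way, with 52.4%, 53.0% and 49.3% in BSM and 46.3%, 46.8% and 46.6% in ASM. For complex IV the mean was 51.6% ± 2.02 (SD, n = 3) before and 46.6% ± 0.291 (SD, n = 3) after maturity. For both complexes the 2-sided exact permutation p was 0.1, the smallest possible, and 0.2 after adjustment over 4 complexes. The shares of CYTB, with 6.21% in BSM and 6.67% in ASM, and of complex V, with 20.3% in BSM and 19.6% in ASM, overlapped between the stages. Shares of a pool sum to the whole, so a higher share of some mRNAs goes with a lower share of others.

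Within the pool, 4 mRNAs had a higher share in every ASM library than in any BSM library, namely ND1, ND2, ND4L and ND5, and 2 had a lower one, COX2 and COX3. In log2 CPM scaled to the pool, 3 mRNAs (ND1, ND4L and ND5) did not overlap and were higher in ASM and 2 were lower. Over all genes tested, 50.2% were separated upwards and 27.7% downwards on that scale. Both shares were smaller for the 13 mRNAs. The scaling centres these mRNAs on their own sum, so no conclusion is drawn from that comparison. ND4L made up 1.16%, 1.27% and 1.06% in BSM and 2.89%, 1.73% and 2.22% in ASM. ND5 made up 2.05%, 2.60% and 2.01% in BSM and 3.90%, 3.10% and 3.83% in ASM. The share of COX3 was 14.6%, 15.7% and 16.5% in BSM and 12.6%, 13.9% and 13.2% in ASM. Each of these 6 shares gave an exact permutation p of 0.1 and, after adjustment over 13 mRNAs, 0.217. When each library was scaled to its summed mitochondrial mRNA count and the edgeR test repeated over all genes, 2 of the 13 mRNAs were higher relative to the pool and 0 were lower, with the same numbers at an unadjusted p under 0.05. On that scale 48.1% of all genes tested were higher and 24.6% were lower, with a median log2 fold change of 0.61, since this scaling shifts every gene up by the lower level of the pool. ND4L had a log2 fold change of 0.94 ± 0.19 (SE) relative to the pool, with an edgeR adjusted p of 0.00268, and ND5 one of 0.68 ± 0.18 (SE), with an edgeR adjusted p of 0.0105. Both calls held in the 6 fits that each left out 1 library. ND4, which lies on the same mRNA as ND4L in mammals, had 0.42 ± 0.25 (SE) relative to the pool, with an edgeR adjusted p of 0.151. Its share of the pool overlapped between the stages. The part that reads shared by the overlapping frames of ND4L and ND4 have in this difference was not tested.

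**Figure D4:**
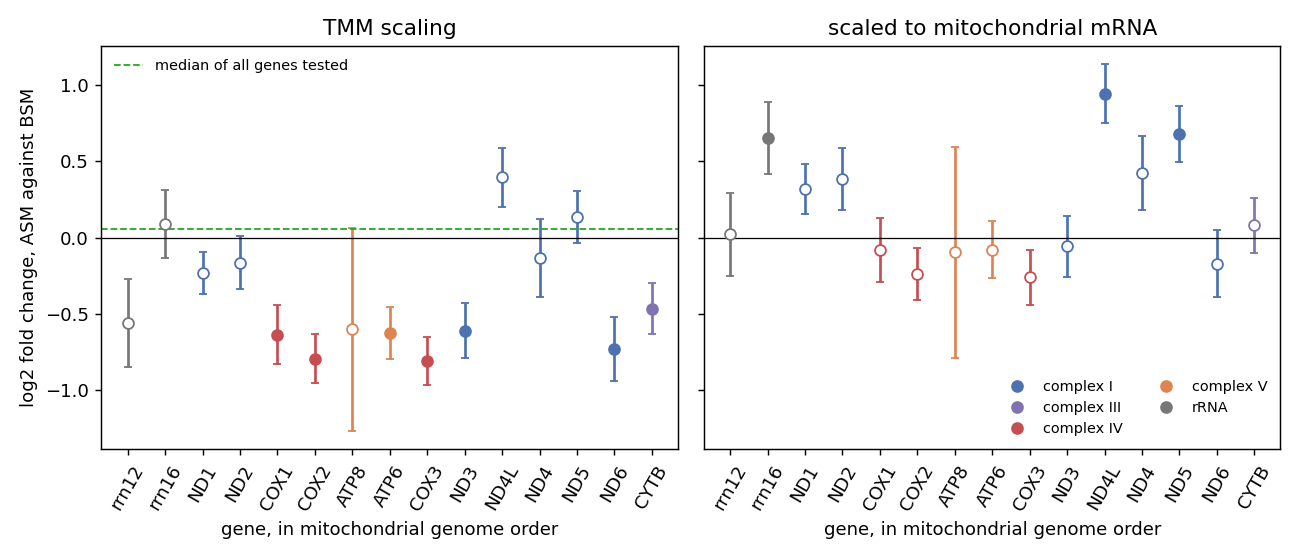
Log2 fold change of ASM against BSM with its standard error (y axis) for the mitochondrial rRNAs and mRNAs in genome order (x axis), with TMM scaling on the left and scaled to the mitochondrial mRNA on the right. Filled points have an edgeR adjusted p under 0.05. With TMM 7 mRNAs are filled below 0, and relative to the pool ND4L at 0.94, ND5 at 0.68 and rrn16 at 0.66 are filled above 0. The median of all genes tested relative to the pool, not drawn, was 0.61.

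The rRNAs rrn12 and rrn16 form the cores of the small and the large mitochondrial ribosomal subunit. rrn12 (ENSECAG00000027676, 975 bp) had 739.98, 470.3 and 405 FPKM in BSM and 256, 334 and 219 FPKM in ASM. The ASM values were all below the BSM values per library total, but with TMM the log2 fold change was -0.56 ± 0.29 (SE), with an edgeR adjusted p of 0.110. Without BSM3 the log2 fold change of rrn12 was -0.85 and called (edgeR adjusted p of 0.0266), and without ASM3 it was -0.30. rrn16 (ENSECAG00000027699, 1581 bp) had 666, 653 and 519 FPKM in BSM and 462, 600.3 and 368 FPKM in ASM, and the stages overlapped. Its log2 fold change was 0.09 ± 0.23 (SE) with TMM and -0.36 ± 0.21 (SE) with the library total. Relative to the mRNA pool rrn16 was higher by a log2 value of 0.66 ± 0.24 (SE), with an edgeR adjusted p of 0.0359. This call was lost without BSM3, ASM1 or ASM2 (0.42 without ASM2) and when COX1 was left out of the scaling. On that scale the median log2 fold change of all genes tested was 0.61, and 48.1% of them were called higher, so rrn16 lay near the middle of all genes. In none of these results can the amount of rRNA in the tissue be read off, since the libraries were made from poly(A) RNA.

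Ratios between neighbouring genes were formed within each library and so do not depend on the scaling. ND4L and ND4 lie on the same mRNA in mammals, and their reading frames overlap slightly. The ratio of ND4L to ND4 per length was 0.416, 0.478 and 0.580 in BSM and 0.666, 0.681 and 0.733 in ASM. All ASM ratios were above all BSM ratios, with means of 0.693 ± 0.0349 (SD, n = 3) and 0.491 ± 0.0829 (SD, n = 3). The ratio of rrn16 to rrn12 was 0.900, 1.39 and 1.28 in BSM and 1.80, 1.80 and 1.68 in ASM, again without overlap. ND5 and ND6 lie on opposite strands and meet at their ends. The ratio of ND5 to ND6 was 3.52, 3.33 and 4.42 in BSM and 7.85, 4.74 and 8.01 in ASM. For each of these 3 ratios the 2-sided exact permutation p was 0.1, the smallest possible, and 0.2 after adjustment over 6 ratios. The last 2 ratios were added after the values of their genes had been seen.

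The other ratios overlapped between the stages. ATP8 and ATP6 also share an mRNA, with a longer overlap of their reading frames, yet ATP8 reached only 0.00371, 0.0104 and 0.0256 of the level of ATP6 in BSM, and 0.00682, 0.0183 and 0.0156 in ASM. Within BSM this ratio thus differed more between libraries than it did between the stages. The ratio of the mean rRNA to the mean mRNA level was 0.141 ± 0.0307 (SD, n = 3) in the immature and 0.187 ± 0.0493 (SD, n = 3) in the mature testis, with an exact permutation p of 0.3. ND6 reached 0.0732 ± 0.0201 (SD, n = 3) of the mean level of the other 12 mRNAs before and 0.0656 ± 0.0118 (SD, n = 3) after maturity, with an exact permutation p of 0.7. The library kit marks strand, but the strand setting of the counting and the treatment of reads shared by overlapping genes are not given in the sources used here, so the part of either in the levels of ATP8, ND4L and ND6 was not tested.

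**Figure D5:**
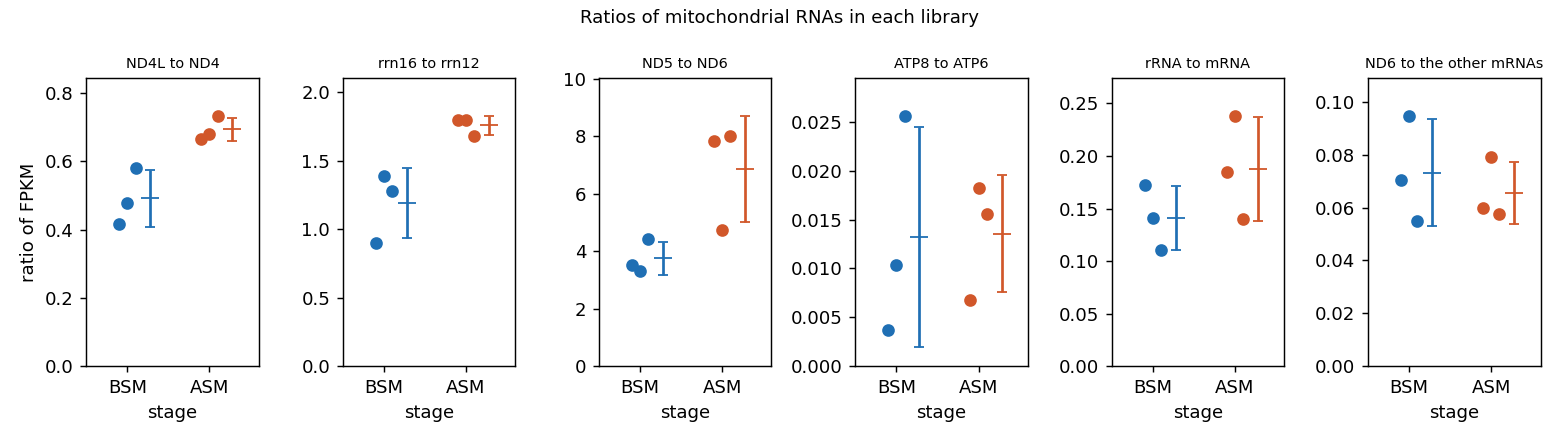
Ratio of FPKM (y axis) for 6 pairs of mitochondrial RNAs or RNA groups in each library of the BSM and ASM stages (x axis). Points are libraries, and bars are the mean with its SD (n = 3). For ND4L to ND4, rrn16 to rrn12 and ND5 to ND6 all ASM points lie above all BSM points, whereas the points of the other 3 ratios overlap.

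The tRNA-length members carried few counts, and 3 of the 8 had too few for the edgeR test. Mitochondrial tRNAs carry amino acids to the mitochondrial ribosome, and their genes are shorter than the fragments selected for sequencing. Together these members held 0.0164% ± 0.00619 (SD, n = 3) of the gene counts before and 0.00617% ± 0.000230 (SD, n = 3) after maturity. A 74-bp gene (ENSECAG00000027674), whose length equals no tRNA of the RefSeq table, had most of them, with 2114, 1002 and 2676 counts in BSM and 1021, 1009 and 897 counts in ASM. By count BSM2 lay within the range of the ASM libraries, and on the TMM scale the stages overlapped. The log2 fold change of -0.86 ± 0.35 (SE) had an edgeR adjusted p of 0.0503, which was 0.000333 without BSM2 and 0.0419 without BSM1. A 70-bp gene (ENSECAG00000027666), the length of trnF, trnW and trnL1, had 646, 265 and 179 counts in BSM and 127, 150 and 92 counts in ASM. It fell by a log2 fold change of -1.44 ± 0.47 (SE), with an edgeR adjusted p of 0.0232. Without ASM1, ASM2 or ASM3 its log2 fold change was -1.35, -1.46 and -1.18, with edgeR adjusted p values of 0.0799, 0.0608 and 0.101. BSM1 had the highest count, and without it the log2 fold change was -0.84. A 69-bp gene (ENSECAG00000027701), a length that 8 of the tRNAs share, had 72, 118 and 48 counts in BSM and 11, 37 and 17 counts in ASM. This gene fell by a log2 fold change of -1.71 ± 0.51 (SE), with an edgeR adjusted p of 0.0160, and this was not called without ASM1 or ASM3.

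The remaining tRNA-length genes had few counts. A 66-bp gene (ENSECAG00000027698) had 44, 54 and 37 counts in BSM and 15, 39 and 10 in ASM, and a 73-bp gene (ENSECAG00000027686) had 31, 38 and 14 counts in BSM and 9, 25 and 10 in ASM. Their log2 fold changes were -0.94 ± 0.50 (SE) and -0.76 ± 0.53 (SE), and neither passed the edgeR test. Without ASM2 the 66-bp gene had -1.55 and was called (edgeR adjusted p of 0.0189), and without ASM3 it had -0.51, while the 73-bp gene ran from -1.23 to -0.40 with 1 library left out. A 67-bp gene (ENSECAG00000027668) had 10 counts at most in any library, and the other 2 genes, both of 69 bp, reached totals of 18 and 5 counts over the 6 libraries. In all, 2 of the 5 tested tRNA-length genes fell and 0 rose with TMM. This share is near the 36.0% of all genes tested that were lower in ASM, so with TMM the count sets them apart from no other genes. The count differed with other scalings and tests, as given below. Their share of the gene counts did not overlap between the stages and was lower in ASM (p = 0.1 in a 2-sided exact permutation test, the smallest possible).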

How the data were processed

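Counts and FPKM of 6 testis libraries were used. Per the submitters' processing notes and methods, the authors aligned reads with TopHat2 2.0.12 and Bowtie2 2.2.3 to the Ensembl horse genome and counted them per gene with HTSeq 0.6.1, and the deposited counts are raw. The deposited FPKM were derived by the authors from the count and the gene length, with the total of the count table as depth. The Ensembl release is not given in the sources used here. Here, edgeR 4.0.16 (R 4.3.3) was run over all genes: filterByExpr, TMM, quasi-likelihood F test with stage as the only term, Benjamini-Hochberg adjustment, threshold 0.05, log2 CPM with a prior count of 2, and SE from the fold change and F. Single values per library were compared by 2-sided exact permutation tests. Alternatives were DESeq2 1.42.0, limma 3.58.1 on log2(FPKM + 1) with a pseudocount of 1, other scalings and filters, and each library left out. The fits were tested on simulated data. No 2 libraries were near-duplicates (chi-square per degree of freedom at least 13.2). At these depths 3 counts equal between 0.152 and 0.214 CPM, for counting error only. Members and comparisons were chosen with earlier results of these data known. By rule a mitochondrial name needed a length equal to that of exactly 1 gene, which the 4 names within 2 bp exceed. All mRNA and rRNA members were named, and tRNA-length members where a library had 10 counts. Cell type markers and nuclear genes of the pathway, also listed, were not analysed here, since the identifiers were not paired with symbols.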

Additional observations from a re-analysis of the deposited data

How the results depend on the processing

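Calls other than those of COX2 and COX3, and of ND4L and ND5 relative to the pool, changed in at least 1 alternative, and with 3 libraries a stage no exact permutation p can pass 0.05. Of the shares, ratios and counts of calls under an alternative, 149 stayed within the spread of their replicates, on their side of the threshold or, for counts, within 1.5 times the count given, 9 moved further and 3 changed sign. Within that tolerance the mRNAs called lower, 7 in the report, numbered 9 with the library total, 6 with DESeq2 size factors and 7 when scaled without the mitochondrial genes. They numbered 8 with every counted gene, 5 with 10 counts in every library, 5 in DESeq2 and 10 in limma. In the same order, the genes called lower numbered 14609, 11052 and 11883 of 32954, 15676 of 53514, 6966 of 18491, 12484 of 52441 and 18086 of 50062. Of the single genes, 198 values kept direction and side of the threshold, 23 were no longer called, 22 were newly called and 16 changed sign. The cause of these changes was not tested. The limma fit used FPKM, which are scaled to the library total, so it shares its scaling with the fit on the library total. With every counted gene tested, ND1 and rrn12 were also called lower, with edgeR adjusted p values of 0.0278 and 0.0497. With DESeq2 size factors 1 mRNA was called higher, as were 14106 of the 32954 genes tested. The tRNA-length genes called lower numbered 4 of the 5 tested with the library total and 7 in limma, which tested all 8. These are larger shares than over all genes, where 14609 of 32954 and 18086 of 50062 were lower. In the other scalings and filters and in DESeq2 the count was 2 or 3. ND4 changed sign to 0.024 in DESeq2, ND4L to -0.058 with the library total and -0.086 in limma, ND5 to -0.32 in both, and rrn16 to -0.36 with the library total, -0.015 with every counted gene tested and -0.38 in limma. Relative to the mRNA pool, rrn12 became -0.041 when COX1 was left out of the scaling.

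With 1 library left out at a time, the mRNAs called lower numbered 2 to 8 (2 without ASM1, 4 without ASM2, 3 without ASM3). Those called higher numbered 0 to 1 (ND4L, without ASM2), and tRNA-length genes called lower 0 to 3 (0 without ASM1 or ASM3). Over all genes tested, 10938 of 36678 were lower without ASM1, 11106 of 36623 without ASM2 and 11040 of 36366 without ASM3, and 13881 were higher without ASM2. The difference in the complex V share ran from -1.56 to 0.27 percentage points (above 0 without BSM3), the log2 difference of the ATP8 to ATP6 ratio from -0.39 (without BSM1) to 1.01, and that of ND6 to the other mRNAs from -0.33 to 0.064 (above 0 without BSM2). Log2 fold changes ran from -0.43 to 0.13 for ND4, -1.18 to 0.28 for ATP8, -0.34 to 0.00145 for ND2, -0.074 to 0.34 for ND5 and -0.16 to 0.38 for rrn16. Relative to the pool they ran from -0.16 to 0.012 for ATP6, -0.65 to 0.088 for the 74-bp gene, -0.20 to 0.31 for rrn12, -0.35 to 0.029 for ND6, -0.55 to 1.00 for ATP8, -0.80 to 0.068 for the 73-bp gene and -0.19 to 0.075 for ND3. The alternatives for the fit scaled to the pool, for the shares of the complexes and for the ratios of rrn16 to rrn12 and ND5 to ND6 were added after seeing the data. No paired analysis was possible because the stages are different animals.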

Other observations

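The spread between libraries of a stage differed widely between members. In BSM the coefficient of variation of FPKM was 5.88% for COX2, 6.43% for ND4L, 6.64% for ND1 and 7.23% for COX3, against 93.8% for ATP8, 32.9% for rrn12 and 24.9% for ND6. In ASM it was 1.70% for COX2 and 3.25% for ND1, against 46.1% for ATP8, 26.2% for ND4, 24.3% for ND4L and 24.5% for rrn16. ND4L was thus among the most even mRNAs in the immature testis and among the more uneven ones in the mature testis. The 74-bp tRNA-length gene showed the opposite, with 49.5% in BSM and 1.56% in ASM.

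Single libraries had their own makeup of the mitochondrial pool. BSM3 had the highest share of ATP6 (21.8%), of ND3 (9.42%) and of ATP8 (0.557%) of all libraries and the lowest share of COX1 (21.2%) and of ND4 (1.83%). ASM2 had the highest share of rRNA among the member counts (4.93%) and, among the ASM libraries, the lowest shares of ND4L (1.73%), ND4 (2.54%), ND5 (3.10%) and CYTB (5.96%). The 3 identifiers that were set aside (ENSECAG00000027662, ENSECAG00000027664 and ENSECAG00000027665) had at most 13 counts in any library.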
